A study of Mus musculus with 10 samples.

Results

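Of 94823 accessible regions, 874 (0.922%) were higher in iNKT1 cells of SKG mice than in iNKT1 cells of BALB/c mice without a like rise in iNKT2 cells. A region was kept when the ratio of the SKG to the BALB/c iNKT1 mean was 2 or more, the SKG iNKT1 mean was at least 2 CPM, the lower SKG iNKT1 library lay above the higher BALB/c iNKT1 library, and the SKG to BALB/c ratio in iNKT2 was under 1.5. CPM are insertion counts scaled by the library total with TMM factors, and 0.5 CPM was added to every group mean before a ratio was taken. These levels chose the regions, so the levels, ratios and fitted changes of the chosen regions below are a description and no test.

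Chromatin accessibility had been measured by ATAC-seq in sorted thymic iNKT cells to ask how the strength of T cell receptor signaling shapes the regulatory elements of the subsets. The 10 libraries formed 4 groups, with 2 libraries of iNKT1 and 3 of iNKT2 cells from each genotype, from mice of 8 to 10 weeks. SKG mice have the BALB/c background and carry a hypomorphic mutation of Zap70 in every cell, and the controls were BALB/c mice with no other allele or treatment named. iNKT1 cells were sorted as CD27+ CD122+ and iNKT2 cells as CD27+ CD122-, and how many mice gave each library is not given in the sources used here, so the spread between libraries may be technical.

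iNKT cells are T cells with an invariant receptor that recognizes lipids on CD1d, and in the thymus they mature into iNKT1 cells, which depend on T-bet and make IFN-γ, iNKT2 cells, which express high PLZF and make IL-4, and iNKT17 cells, which depend on RORγt. Zap70 is the kinase that passes the signal from the engaged receptor to the adaptors below it. Most accessible regions away from gene starts are candidate regulatory elements, where transcription factors displace nucleosomes.

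Before the members were described, the libraries were checked. Insertions inside the regions totalled 14988590 to 36342635 per library, and the SKG iNKT1 libraries held 17214764 and 17454220, fewer than either BALB/c iNKT1 library, so that 1 CPM stood for 15.6 insertions in each of them. Promoter regions of 13 of the 14 iNKT1 marker genes were present and summed to 826.1 to 870.4 CPM in the 4 iNKT1 libraries against 218.8 to 299.8 CPM in the 6 iNKT2 libraries. The sum over the iNKT2 markers did not part the subsets (295.7 to 328.3 CPM at promoters in iNKT1, 294.4 to 348.5 CPM in iNKT2). In bulk libraries, a larger share of cells with a region open and a more open region in each cell cannot be told apart.

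The sequences of 4 members are shown because each holds a motif string of the 4 groups whose share among members was highest relative to all regions at 2 CPM or more in SKG iNKT1. The shares were 29.5% against 17.7% for Runx and 8.58% against 6.02% for Gata. For Tcf (17.8% against 16.3%) and T-box (4.69% against 4.55%) they were near each other. Outside promoters the T-box share was 4.5% against 5.03%. Each member shown has the largest change among the members that hold the string and lie on the chromosomes named in the processing, and where a region is longer than 300 bases a 300-base stretch with the string is shown (the Tcf and T-box members run to positions 89265670 and 58020250). The bases are those of the GRCm38 (mm10) reference, plus strand, read 5′ to 3′. The reference is C57BL/6J, and BALB/c bases may differ. Capitals mark the string, which was searched for on both strands. The Runx group was searched as TGTGGTT and the Gata group as AGATAAG. The Tcf group was searched as CTTTGAA and also as CTTTGAT, and the T-box group as AGGTGTGA and also as AGGTGTTA. All 4 regions are intergenic and named by the nearest protein-coding gene start.
Runx region, 1700017N19Rik, chr10:100780820-100781119: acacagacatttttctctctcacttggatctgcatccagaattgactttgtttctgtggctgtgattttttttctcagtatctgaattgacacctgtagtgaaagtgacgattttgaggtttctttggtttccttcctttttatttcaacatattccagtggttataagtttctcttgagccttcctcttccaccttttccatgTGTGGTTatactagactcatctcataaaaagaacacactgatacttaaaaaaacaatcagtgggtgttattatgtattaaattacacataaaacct
Gata region, Col8a1, chr16:57934502-57934801: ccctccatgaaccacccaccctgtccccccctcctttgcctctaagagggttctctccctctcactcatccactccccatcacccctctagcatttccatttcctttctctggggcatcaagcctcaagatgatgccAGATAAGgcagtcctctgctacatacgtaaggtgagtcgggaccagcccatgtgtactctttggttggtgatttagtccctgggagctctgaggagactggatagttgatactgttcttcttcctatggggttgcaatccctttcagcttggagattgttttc
Tcf region, Plxna1, chr6:89265293-89265592: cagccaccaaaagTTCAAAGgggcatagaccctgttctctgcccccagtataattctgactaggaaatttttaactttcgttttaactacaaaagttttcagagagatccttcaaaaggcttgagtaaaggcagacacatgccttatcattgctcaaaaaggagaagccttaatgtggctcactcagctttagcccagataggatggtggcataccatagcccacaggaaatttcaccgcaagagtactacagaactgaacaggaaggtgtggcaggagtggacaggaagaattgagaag
T-box region, Col8a1, chr16:58019884-58020183: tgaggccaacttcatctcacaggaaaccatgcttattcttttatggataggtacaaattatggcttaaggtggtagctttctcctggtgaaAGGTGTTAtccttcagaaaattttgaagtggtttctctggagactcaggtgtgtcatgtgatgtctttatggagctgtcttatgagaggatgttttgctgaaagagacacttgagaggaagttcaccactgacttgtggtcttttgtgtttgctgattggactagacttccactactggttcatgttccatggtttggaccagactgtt

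The Runx string was the commonest of these, and the 8 members with the largest change that hold it are shown by the 27 bases around the string nearest to the region's centre. The string appears as TGTGGTT or, on the other strand, as AACCACA.
1700017N19Rik, chr10:100781014-100781040: cttttccatgTGTGGTTatactagact
Tbc1d22a, chr15:86257064-86257090: ctggcactcgAACCACAcaggcccagg
Mapkapk5, chr5:121539394-121539420: tcctctgctcAACCACAgatccttacc
4930544G11Rik, chr6:66155036-66155062: ggagtacagcTGTGGTTtgcttgggtg
1700017N19Rik, chr10:100667970-100667996: ctatgaagctAACCACAtcctctcaca
Ttc37, chr13:76139027-76139053: tgtctcttccTGTGGTTttgtaccgta
Eif2d, chr1:131161251-131161277: tcaggaagggTGTGGTTctttcctttc
Bcl2l14, chr6:134362543-134362569: atcagagctgTGTGGTTcctgggcttc
All 8 were at most 1.31 CPM in BALB/c iNKT1 cells. Their SKG iNKT1 levels ran from 1.93 CPM at the second 1700017N19Rik region to 9.06 CPM at Ttc37, each in replicate 1. In iNKT2 cells, 6 of them stayed under 1 CPM in every library, whereas the region near 4930544G11Rik was at 3.30 to 8.50 CPM and the Bcl2l14 region at 2.02 to 2.70 CPM.

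Across the members, levels in the SKG iNKT1 libraries were low to moderate. The median member stood at 5.08 and 5.23 CPM in SKG iNKT1 and at 1.76 and 1.56 CPM in BALB/c iNKT1. In iNKT2 the medians were 1.85, 1.61 and 1.61 CPM in BALB/c and 1.69, 1.52 and 1.35 CPM in SKG. Members took 0.626% and 0.650% of all insertions in the SKG iNKT1 libraries, 0.251% and 0.227% in BALB/c iNKT1, and 0.321% to 0.385% in the 6 iNKT2 libraries.

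Most members lay close to the ratio limit. The ratio in iNKT1 had a median of 2.37 and a highest value of 28.8, 512 members (58.6%) were under 2.5, and 49 were at 4 or more. Just inside the limit, a region in an intron of Napepld held 13.7 and 10.1 CPM in BALB/c and 25.2 and 23.4 CPM in SKG iNKT1. Just outside it, a region in an intron of Plekhm3 held 4.60 and 3.70 CPM against 10.0 and 7.57 CPM. The 2 SKG iNKT1 libraries differed by more than 2-fold in 14 members, and the 2 BALB/c iNKT1 libraries in 12.

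For the edgeR fit to all 94823 regions, a region was called at an adjusted p under 0.01 with a 4-fold change, the thresholds of the study. By this fit 102 members (11.7%) were called higher in SKG iNKT1, beside 0.281% of all regions, and no reading is drawn because the members were chosen on this contrast. Those 102 are 38.3% of the 266 regions called higher in SKG iNKT1. The call rested on all 4 iNKT1 libraries: fewer members, and fewer of all regions, were called when any of them was left out. A group then held 1 library. Without BALB/c iNKT1 replicate 1 or 2 the median log2 change of members was 1.62 and 1.46, beside 1.48 with all libraries. Without SKG iNKT1 replicate 1 or 2 it was 1.51 and 1.48. At an adjusted p under 0.05 and 2-fold, 663 members (75.9%) were called, beside 1.34% of all regions. Both SKG libraries lay above both BALB/c libraries in all members by construction, beside 24.4% of all regions.

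In iNKT2 cells the genotypes differed little at these regions, as the rule asked for the upward direction. The median log2 change was 0.06 in members and 0.01 in all regions, and 7 members (0.801%) were called, all of them lower in SKG iNKT2, beside 0.252% of all regions higher and 4.73% lower. By voom with quantile normalization, 6 members were called higher and 5 lower, beside 1173 and 3469 of all 94823 regions. The looser thresholds, 0.05 and 2-fold, called 13 members (1.49%, beside 2.29%) upward and 53 (6.06%, beside 12.2%) downward. All SKG iNKT2 libraries lay above all BALB/c iNKT2 libraries in 95 members (10.9%, beside 16.7%) and below them in 116 (13.3%, beside 21.9%). The interaction, the change in iNKT2 minus that in iNKT1, was called lower in 101 members (11.6%, beside 0.341%), and in 348 (39.8%, beside 2.1%) at the looser thresholds. The rule set no limit on falls. The promoter of Parm1, which encodes a mucin-like membrane protein, is among the 7 (chr5:91517417-91517779). It held 0.657 and 0.573 CPM in BALB/c iNKT1, 4.05 and 1.48 CPM in SKG iNKT1, 4.08, 6.90 and 7.54 CPM in BALB/c iNKT2, and 0.891, 1.47 and 1.82 CPM in SKG iNKT2. Thus the SKG libraries lay above the BALB/c libraries in iNKT1 and below them in iNKT2, and the 2 SKG iNKT1 values lay far apart. The log2 change was 2.15 (SE 0.49) in iNKT1, which was not called, and -2.20 in iNKT2.

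**Figure D1:**
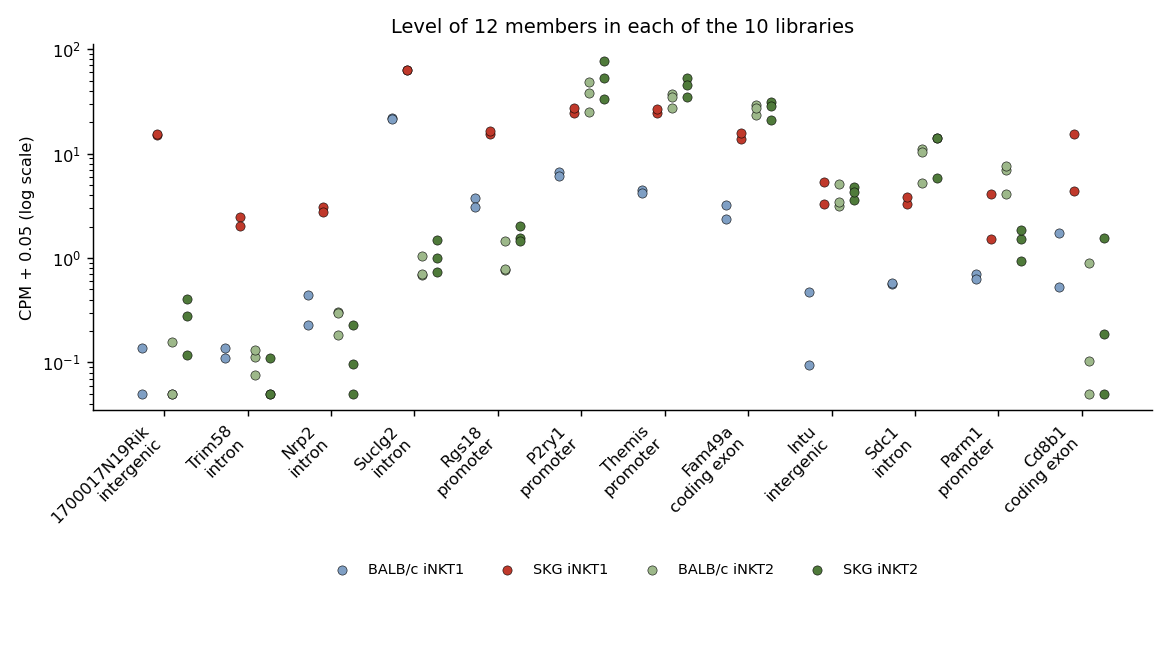
Levels of 12 members in each of the 10 libraries, on a log axis of CPM plus 0.05, with 1 point per library and colors for the 4 groups. Both red points (SKG iNKT1) lie above both blue points (BALB/c iNKT1) in all 12, as the rule requires. The green iNKT2 points lie far below the red points at Suclg2, at the red level or above at Themis and Fam49a, and apart by genotype at Parm1.

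Set against the iNKT2 level, members divided into 3 classes. In 334 members (38.2%) the mean of the 6 iNKT2 libraries was under 1 CPM, in 408 (46.7%) it lay between 1 CPM and the SKG iNKT1 mean, and in 132 (15.1%) it was above the SKG iNKT1 mean. The first class had medians of 1.27 CPM in BALB/c iNKT1, 4.11 CPM in SKG iNKT1 and 0.353 CPM in iNKT2. The last had medians of 1.23, 4.06 and 7.56 CPM, and of 7.51 CPM in BALB/c iNKT2 and 7.7 CPM in SKG iNKT2. The rule puts SKG iNKT1 above BALB/c iNKT1, and the class puts iNKT2 above SKG iNKT1. The order of these levels was therefore fixed by the choice of regions. Among all regions at 2 CPM or more in SKG iNKT1, 6.98% fell in the first class and 32.1% in the last.

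The contrasts between subsets share the iNKT1 libraries with the rule and are given side by side. In BALB/c mice 179 members (20.5%) were called lower in iNKT2 than in iNKT1, beside 6.36% of all regions, and 104 (11.9%) higher, beside 15.5%, a split that moved to 143 lower and 132 higher with library totals in place of TMM (4750 and 17104 of all regions) and to 287 lower and 88 higher with voom and quantile normalization (8966 and 9042 of all regions). A low-count filter removed the regions with the lowest mean counts, and members among them counted as not called. It left 76 lower and 121 higher (3572 and 7859 of all regions). The median log2 change was 0.46 in the members left, beside -0.22 in all members, so the members counted were not the same. In SKG mice 413 (47.3%) were called lower in iNKT2, beside 6.96%, and 6 (0.686%) higher, beside 10.2%. At the looser thresholds, 284 (32.5%, beside 16%) were lower and 224 (25.6%, beside 26.7%) higher in BALB/c mice, and 591 (67.6%, beside 15%) were lower and 39 (4.46%, beside 21.6%) higher in SKG mice. Of the 2010 regions called lower in iNKT2 in SKG mice and not called in BALB/c mice, 234 (11.6%) were members, beside 0.922% of all regions. Of the 7466 called higher in iNKT2 in BALB/c mice and not called in SKG mice, 98 (1.31%) were members, a share near that of all regions.

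**Figure D2:**
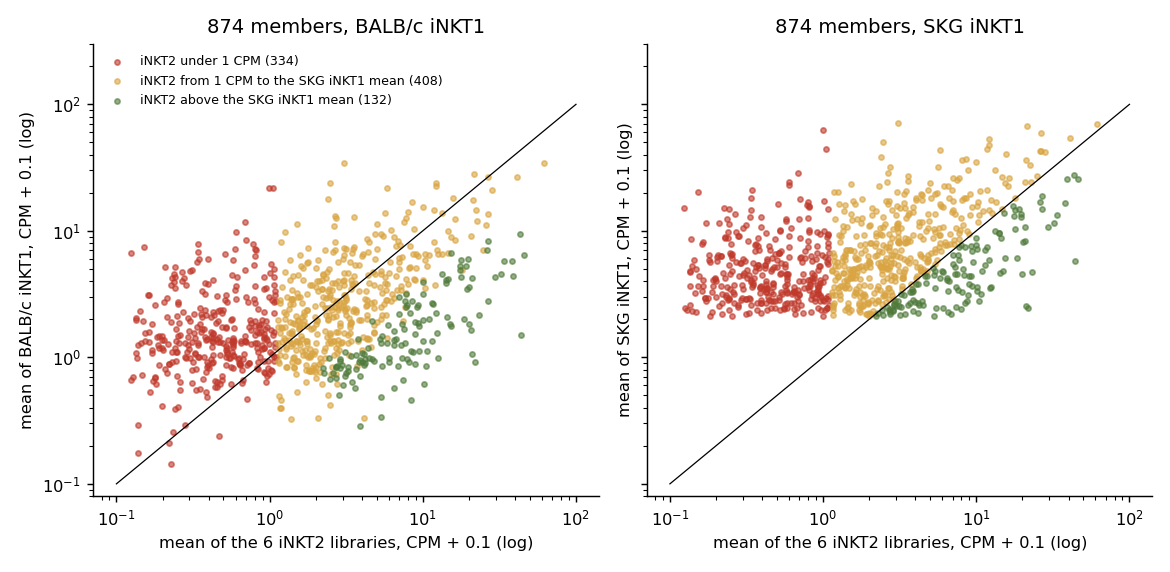
Mean level in BALB/c iNKT1 (left) and SKG iNKT1 (right) of the 874 members against the mean of the 6 iNKT2 libraries, all on log axes of CPM plus 0.1, with the line of equal levels. The 334 red members lie under 1 CPM in iNKT2 by definition. The 132 green members lie below the line on both sides and closer to it in SKG iNKT1, as their class and the rule require.

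Among members that stayed closed in iNKT2, the largest changes were near 1700017N19Rik, an uncharacterized gene on chromosome 10. The region chr10:100655932-100656237, intergenic and 63676 bp from its start, held 0 and 2 insertions in BALB/c and 232 and 240 insertions in SKG iNKT1 cells. That is 0 and 0.0882 CPM against 14.9 and 15.4 CPM, a ratio of 425 with an exact 95% interval of 117 to 3520 that covers counting error only. The 6 iNKT2 libraries held 0 to 0.357 CPM. A second region, chr10:100634200-100634509, held 0.209 and 0.176 CPM in BALB/c iNKT1, 9.83 and 7.12 CPM in SKG iNKT1 and at most 0.0891 CPM in iNKT2. Outside SKG iNKT1 these regions held at most 12 insertions in any library, where 3 insertions are 0.0794 to 0.202 CPM.

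Other members of this kind lay within genes. In an intron of Trim58, a gene for a ubiquitin ligase of the tripartite motif family, chr11:58644206-58644511 held 0.0597 and 0.0882 CPM in BALB/c iNKT1 and 2.44 and 1.99 CPM in SKG iNKT1, with 0 to 0.0825 CPM in iNKT2. In an intron of Tbc1d22a, chr15:86256807-86257106 held 0.179 and 0.0441 CPM against 2.83 and 2.31 CPM, with at most 0.238 CPM in iNKT2. In a coding exon of Mapkapk5, which encodes a kinase below p38 MAPK, chr5:121539243-121539553 held 0.149 and 0.132 CPM against 2.70 and 2.63 CPM. These 3 regions were low in SKG iNKT1 too, at about 2 to 3 CPM. An exonic region of Adamts13, which encodes a plasma protease, was uneven, with 7.45 and 2.89 CPM in SKG iNKT1 and 0.135 to 4 CPM in iNKT2, and its change was not called.

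The members with the highest SKG iNKT1 levels changed less. A region in an intron of Suclg2 (chr6:95614446-95615381), which encodes a subunit of a citric acid cycle enzyme, held 21.7 and 21.3 CPM in BALB/c iNKT1, 62.8 and 63.1 CPM in SKG iNKT1 and 0.635 to 1.43 CPM in iNKT2. A region 16730 bp from the start of Dnajc27 held 32.6 and 36.1 CPM against 68.9 and 72.4 CPM, and 1.55 to 5.35 CPM in iNKT2. Both were open in iNKT1 cells of either genotype and more so in SKG. The log2 changes were 1.55 (SE 0.21) and 1.04 (SE 0.29). Regions near Pex5 and in Adarb2, Ntrk3 and Rab3ip, with SKG iNKT1 levels of 51.3 to 72.3 CPM, had log2 changes of 1.04 to 1.27.

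Among members that were higher in iNKT2, the Themis locus had 2 members called at 4-fold. Themis is an adaptor of T cell receptor signaling that thymocytes need for positive selection. Its promoter region (chr10:28667892-28668621) held 4.42 and 4.19 CPM in BALB/c iNKT1, 24.5 and 26.5 CPM in SKG iNKT1, 27.5 to 37.2 CPM in BALB/c iNKT2 and 34.9 to 52.6 CPM in SKG iNKT2. The SKG iNKT1 libraries lay above both BALB/c iNKT1 libraries and below every iNKT2 library, with a log2 change of 2.56 (SE 0.21). A region over a coding exon nearby (chr10:28668732-28669031) went from 0.149 and 0.220 CPM to 2.18 and 2.25 CPM, against 2.67 to 4.34 CPM in iNKT2. Of the 7 regions assigned to Themis, 4 were members, and the other 3 also had positive changes, of which 1 was called. Among these, chr10:28695021-28695454 held only 0 and 0.0882 CPM in BALB/c iNKT1 and 0.128 and 0.577 CPM in SKG iNKT1. Its log2 change was 3.13 (SE 1.04), and it was not called.

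The promoter of P2ry1, a receptor for ADP, had a like order. It held 6.66 and 5.99 CPM in BALB/c iNKT1, 24.5 and 27 CPM in SKG iNKT1 and 25.1 to 77.7 CPM in iNKT2. A region in Fam49a (chr12:12372597-12373430), which encodes a Rac-binding protein, held 3.14 and 2.29 CPM, 13.7 and 15.8 CPM, and 20.9 to 31.1 CPM. At Fam49a both SKG iNKT1 libraries lay between the BALB/c iNKT1 and the iNKT2 libraries, and at P2ry1 the ranges of SKG iNKT1 and iNKT2 overlapped. Far from any start, a region 556908 bp from Intu held 0.418 and 0.0441 CPM in BALB/c iNKT1, 5.33 and 3.27 CPM in SKG iNKT1 and 3.11 to 5.05 CPM in iNKT2.

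Promoters were few among members. A region counted as a promoter where it overlapped 1000 bases before to 100 bases after the start of a protein-coding transcript. By this window 30 members (3.43%) were promoters, against 16.9% of all regions, 25.7% of regions at 2 CPM or more in SKG iNKT1 and 7.60% of the 974 regions that were lower only in SKG iNKT1 by the mirror of the rule. The share in members was 7.09% with 2500 bases on either side. Of the others, 414 members (47.4%) lay in introns and 371 (42.4%) between genes. The median distance to the nearest start was 38838 bp in members, 12888 bp in all regions and 19436 bp in the mirror set, and 210 members (24%) lay over 100 kb away, against 10.1% of all regions. The median width was 341.5 bp in members and 343 bp in all regions, and the median GC content 46.8% and 48.7%.

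Besides Themis, P2ry1 and Parm1, the promoters with the largest changes were those of Map6, Rgs18 and Nrp2. The Rgs18 promoter (chr1:144775342-144775676), which belongs to a regulator of G protein signaling, held 3.67 and 3.00 CPM in BALB/c iNKT1, 15.2 and 16.6 CPM in SKG iNKT1 and 0.714 to 1.97 CPM in iNKT2. The order was SKG iNKT1 over BALB/c iNKT1 over iNKT2, with a log2 change of 2.24 (SE 0.28). The Map6 promoter, of a microtubule-stabilizing protein, held 0.597 and 0.485 CPM against 3.53 and 2.50 CPM, and 0.337 to 1.41 CPM in iNKT2.

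The 874 members were assigned to 614 genes, of which 469 had 1 member, and 215 members fell at 50 genes with 3 or more. Outside chromosome 18, which holds 46 members that are not described singly, Nrp2 had the most, with 13 of its 31 regions. Nrp2 is a co-receptor for semaphorins and VEGF. Its members spanned chr1:62702623-62903440, from the promoter to 199560 bp downstream, with log2 changes of 1.08 to 3.35. All 18 other regions of Nrp2 had positive changes too, with a median of 0.97, beside -0.03 for all regions. In 7 of the 13 members the mean iNKT2 level was under 1 CPM.

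Members within Nrp2 differed in their iNKT2 levels. The main promoter region (chr1:62702937-62703718) held 12.1 and 15.0 CPM in BALB/c iNKT1, 40.8 and 44.0 CPM in SKG iNKT1 and 20.2 to 35.8 CPM in iNKT2. An intergenic region downstream (chr1:62833913-62834817) held 22.2 and 25.8 CPM against 52.5 and 48.7 CPM, and 1.19 to 4.58 CPM in iNKT2. An intronic region (chr1:62760215-62760514) held 0.179 and 0.397 CPM against 3.02 and 2.69 CPM, and at most 0.251 CPM in iNKT2. The promoter was therefore open in all groups, the downstream region mainly in iNKT1, and the intronic region in SKG iNKT1.

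Pkp4, which encodes an armadillo-repeat protein of cell junctions, had 8 members among 19 regions, with log2 changes of 1.56 to 2.44. Its intronic region chr2:59327948-59328343 held 4.09 and 4.41 CPM in BALB/c iNKT1, 15.7 and 14.1 CPM in SKG iNKT1 and 0.119 to 0.184 CPM in iNKT2. Another intronic region, chr2:59203380-59203999, held 1.88 and 1.45 CPM against 5.78 and 5.39 CPM, and 5.97 to 11.2 CPM in iNKT2. The same gene thus held members that were closed and members that were open in iNKT2. Near Prok2, the gene of a secreted ligand of G protein-coupled receptors, 6 of 9 regions were members, all between 59016 and 259159 bp from its start, and 5 of the 6 had iNKT2 means under 1 CPM. The region chr6:99785246-99785570 held 5.11 and 5.73 CPM in BALB/c iNKT1, 17.9 and 16.4 CPM in SKG iNKT1 and 0.539 to 1.41 CPM in iNKT2.

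Near Bcl2l14, a gene of the Bcl2 family, the 6 members of 20 regions all had a mean of 1.63 CPM or more over the iNKT2 libraries. The region chr6:134364518-134365085 held 9.35 and 8.51 CPM in BALB/c iNKT1, 22.0 and 26.4 CPM in SKG iNKT1 and 13.5 to 29.0 CPM in iNKT2. At Fam49a, 6 of 43 regions were members, with log2 changes of 1.3 to 2.42.

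The 6 members near 1700017N19Rik were among 15 regions assigned to this gene. Of the 9 others, 8 were called higher in SKG iNKT1. They missed the rule by an iNKT2 ratio of 1.5 or more, except chr10:100811683-100811982, whose SKG iNKT1 libraries held 1.61 and 1.80 CPM, under the minimum. The region chr10:100740973-100741611 held 0.269 and 0.838 CPM in BALB/c iNKT1, 16.4 and 18.7 CPM in SKG iNKT1, 0.502 to 0.794 CPM in BALB/c iNKT2 and 16.8 to 19.2 CPM in SKG iNKT2. So this neighbor was high in both SKG subsets, while the member chr10:100655932-100656237 was high in SKG iNKT1 cells and at most 0.357 CPM in SKG iNKT2.

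**Figure D3:**
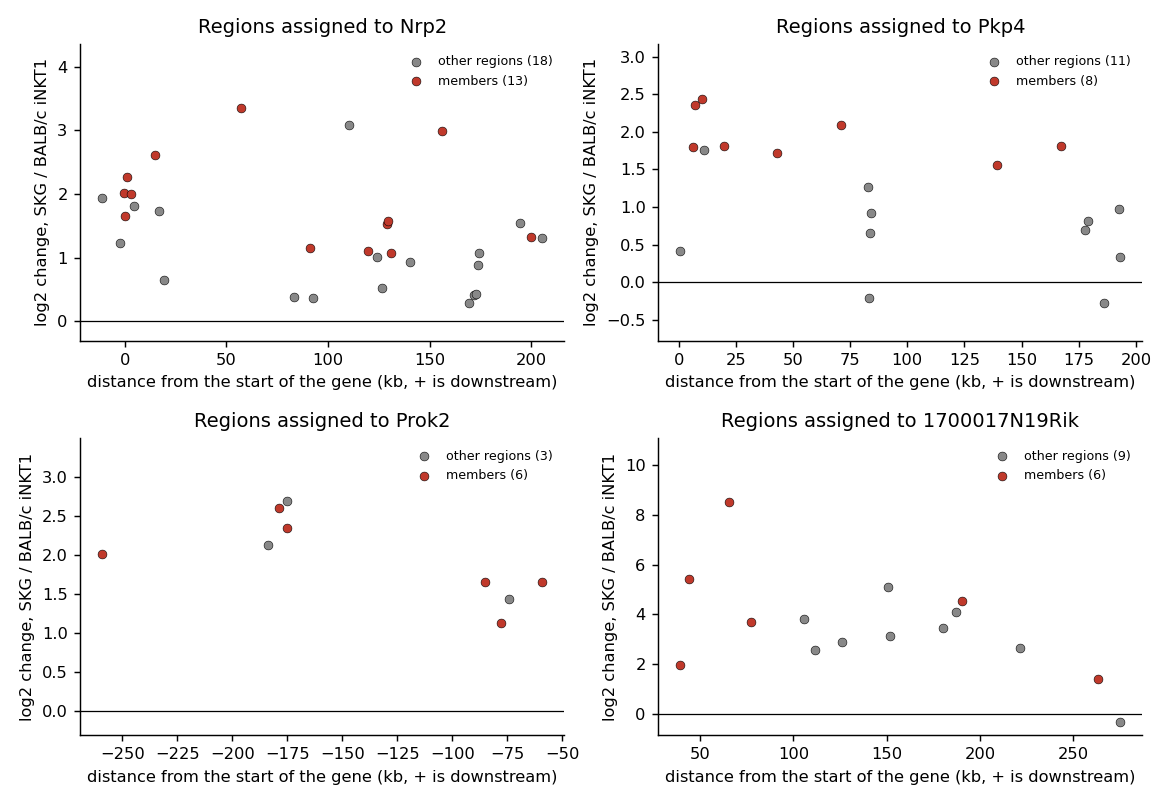
Fitted log2 change, SKG against BALB/c iNKT1, of all regions assigned to Nrp2, Pkp4, Prok2 and 1700017N19Rik, against the distance in kb from the start of the gene. Red points are the 13, 8, 6 and 6 members, gray points the other regions, and the gray points lie above 0 in 18 of 18, 9 of 11, 3 of 3 and 8 of 9 regions.

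Regions near members moved with them. The 680 regions that are no members but lie within 5 kb of one had a median log2 change of 0.52 in iNKT1, and 81.6% of them were positive. For 4781 regions at 5 to 50 kb the median was 0.15, for 11045 regions at 50 to 200 kb it was 0.01, and for 77443 regions farther away it was -0.05. In iNKT2 the medians of the same 4 groups were 0.14, 0.09, 0.04 and 0.00132. Members also lay near each other, 336 (38.4%) having another within 50 kb, and in the mirror set this share was 41.5%. By chromosome, the share of regions that were members ran from 0.417% on chromosome 8 to 1.56% on chromosomes 6 and 18.

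Motif strings were searched in the whole region on both strands. The Runx string, bound by the Runx factors that pair with Cbfβ, was in 258 members (29.5%), against 16.0% of all regions, 17.7% of regions at 2 CPM or more in SKG iNKT1, 17.6% of the mirror set and 32.9% of the 140 regions that were higher in SKG in both subsets. Outside promoters the shares were 30% in members and 20.5% in regions at 2 CPM or more. The compared regions had higher levels, with a median SKG iNKT1 mean of 7.67 CPM against 5.15 CPM in members and a median iNKT2 level of 6.4 against 1.65 CPM. Within the 200 central bases it was in 24% of members and 10.6% of all regions. Ets strings were in 20.3% of members and 23.1% of regions at 2 CPM or more, and both Runx and Ets strings in 5.03% and 3.96%.

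Set beside regions of a like iNKT2 class, the Runx share of members differed by class. In members under 1 CPM in iNKT2 it was 26.6%, against 24.3% of all regions at 2 CPM or more in SKG iNKT1 with so low an iNKT2 level. In the middle class the shares were 31.9% and 18.2%, and in members above the SKG iNKT1 mean 29.5% and 15.3%. The share was near that of its peers in the first class, and across the classes the share of the peers fell while that of members was 26.6% to 31.9%. These differences were not tested. Tcf strings, of Tcf1 and Lef1, followed the iNKT2 level in members and peers alike, with 10.2% and 11.8% in the first class and 25.8% and 19.4% in the last. T-box strings, of T-bet and Eomes, were in 5.39% of the first class and 9.90% of its peers.

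**Figure D4:**
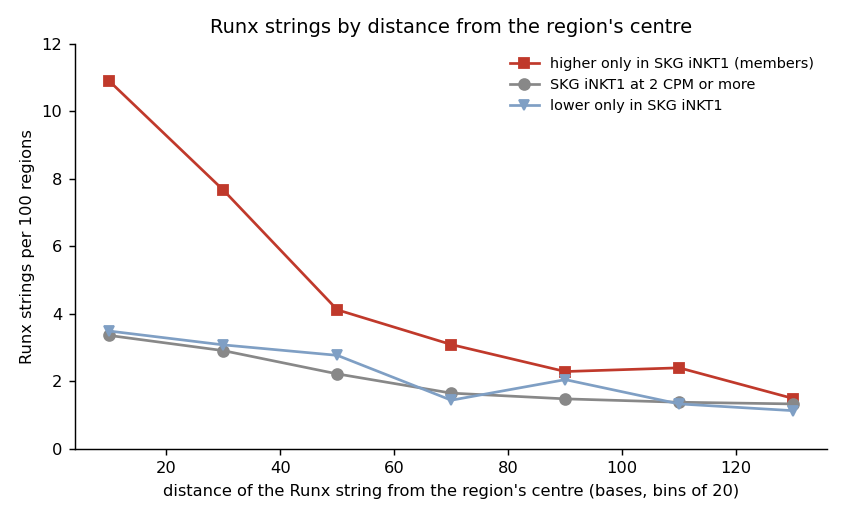
Runx strings per 100 regions against the distance of the string from the region's centre, in bins of 20 bases, for members, all regions at 2 CPM or more in SKG iNKT1, and regions lower only in SKG iNKT1. In the central bin members held 10.9 strings per 100 regions, against 3.36 and 3.49, and at 120 to 140 bases 1.49, 1.33 and 1.13.

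Strings of factors that act downstream of T cell receptor and cytokine signals were no more frequent in members. The NF-kB strings were in 5.26% of members, 9.01% of regions at 2 CPM or more and 19.9% of the mirror set. The AP-1 string TGANTCA was in 10.3%, 14.7% and 31.2%, and the NFAT string TGGAAAA in 6.98%, 9.67% and 10.6%. Egr strings were in 12.9%, 21.0% and 20.6%. Thus AP-1 and NF-kB strings were most frequent, of these sets, in the regions lower only in SKG iNKT1. The CTCF string CNAGNGGGC was in 4% of members and 11.8% of regions at 2 CPM or more, and outside promoters in 3.91% and 8.89%. A string is a match of letters and not a bound site.

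**Figure D5:**
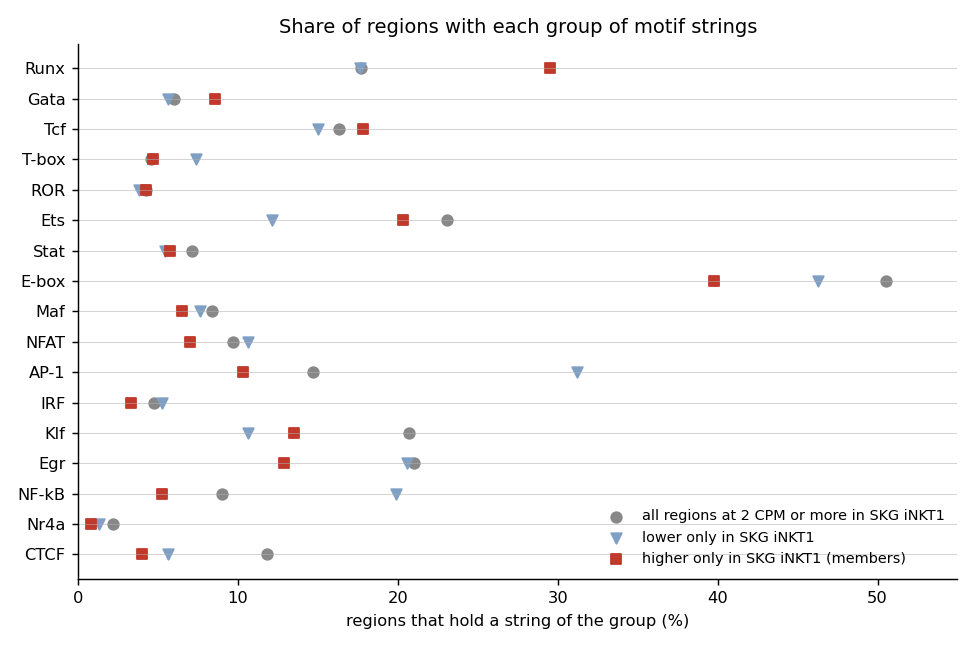
Percent of regions that hold a string of each of 17 motif groups, for members (red squares), all regions at 2 CPM or more in SKG iNKT1 (gray circles) and regions lower only in SKG iNKT1 (blue triangles). Runx is the group in which members exceed both other sets most (29.5% against 17.7% and 17.6%), and AP-1 and NF-kB strings are most frequent in the regions that fell.

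Lists of receptor pathway genes held 1 to 5 members each. Of 544 regions at 26 T cell receptor response genes, 1 was a member (0.184%, beside 0.922% of all regions), a region 10042 bp from the start of Nr4a1 that held 2.48 and 3.17 CPM in BALB/c iNKT1 and 6.94 and 8.85 CPM in SKG iNKT1. In that list 11 regions were called lower in SKG iNKT1, beside 0.732% of all regions, and the median log2 change was -0.27. Of 314 regions of the NF-kB pathway, 2 were members (0.637%), both far from the start of Nfkbiz, which encodes an atypical inhibitor protein of the IκB family. The nearer one, at 190917 bp, held 1.16 and 1.54 CPM against 5.53 and 4.94 CPM. Among 280 regions of MAPK feedback genes, members were 1 near Dusp6 and 1 in Rasa3 (0.714%). Of these 280 regions, 15 were called lower and 2 higher in SKG iNKT1, beside 0.732% and 0.281% of all regions. The member shares of the NF-kB and MAPK lists lie near that of all regions.

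Of 802 regions at genes of proximal receptor signaling, 5 were members (0.623%), namely the 4 at Themis and 1 in an intron of Fyn, a Src family kinase, with 0.806 and 1.19 CPM in BALB/c and 3.60 and 2.44 CPM in SKG iNKT1. The list of egress and quiescence genes had 6 members of 546 regions (1.10%), 3 near S1pr1 and 1 each at Btg1, Foxp1 and Klf6. S1pr1 is the receptor by which mature thymocytes leave the thymus. Its strongest member, 32305 bp from the start, was open in every group, with 37.9 and 31.2 CPM in BALB/c iNKT1, 67.7 and 72.6 CPM in SKG iNKT1 and 52.3 to 72.9 CPM in iNKT2. The Foxp1 member, of a factor that holds T cells quiescent, held 1.64 and 0.705 CPM against 3.15 and 2.95 CPM, 0.159 to 0.345 CPM in BALB/c iNKT2 and 0 in the 3 SKG iNKT2 libraries. It is among the 7 members called lower in SKG iNKT2, a call that rests on only 11, 6 and 5 insertions in the BALB/c iNKT2 libraries. Members at Btg1 and Klf6 were at 2.05 to 2.63 CPM in SKG iNKT1.

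Among cytokine receptors, Stat and Socs genes, 2 of 539 regions were members, both 22391 to 23879 bp from Socs2, a feedback inhibitor of cytokine receptors. They differed in their iNKT2 level. The region chr10:95439099-95439398 held 1.46 and 1.01 CPM in BALB/c iNKT1, 4.75 and 3.78 CPM in SKG iNKT1 and at most 0.124 CPM in iNKT2. At chr10:95440564-95440909 the levels were 0.956 and 0.529 CPM, 3.53 and 2.44 CPM, and 0.877 to 1.65 CPM. Neither was called in the iNKT1 genotype contrast. A region in an intron of Spef2 whose nearest start is that of Il7r held 4.36 and 4.01 CPM in BALB/c iNKT1 and 10.5 and 9.05 CPM in SKG iNKT1. Among 432 regions of adhesion, chemokine and residency genes, members were 1 each at Itga2, Itgb1 and Cx3cr1. Among 1277 regions of T lineage transcription factors, 4 were members (0.313%), at Id2, Bcl11b, Satb1 and Tcf4. The lists of interferon response, survival and cytotoxic genes held no member among 83, 154 and 258 regions, where edgeR at the looser thresholds, which called 2.91% of all regions lower, called 1, 3 and 4 regions lower and 0, 1 and 2 regions higher in SKG iNKT1.

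Subset markers held 1 member among 269 regions for iNKT1 (0.372%) and 3 among 312 for iNKT2 (0.962%), beside 0.922% of all regions. A region 100358 bp from Ifng held 2.48 and 2.60 CPM in BALB/c iNKT1, 5.72 and 6.74 CPM in SKG iNKT1 and 1.35 to 2.63 CPM in iNKT2. In the type 2 cytokine locus, an intronic region of Il4 (chr11:53615091-53615928) held 2.63 and 2.78 CPM against 7.97 and 7.31 CPM, and 4.16 to 11.8 CPM in iNKT2. Its SKG iNKT1 level thus fell within the iNKT2 range. Both Il13 members were lower, at 2.18 to 3.34 CPM in SKG iNKT1. The log2 changes of these 4 members were 1.29 to 1.52, under 4-fold.

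iNKT17 markers had 4 members of 148 regions (2.70%, beside 0.922% of all regions). They lay at Sdc1, whose product syndecan-1 marks iNKT17 cells, and at Rora, a nuclear receptor of the IL-17 program. An intronic region of Sdc1 (chr12:8787053-8787383) held 0.508 and 0.529 CPM in BALB/c iNKT1, 3.28 and 3.78 CPM in SKG iNKT1 and 5.18 to 14.1 CPM in iNKT2. An intronic region of Rora (chr9:69173828-69174448) held 1.05 and 0.617 CPM, 4.05 and 4.62 CPM, and 3.17 to 7.5 CPM. In the other member of each gene SKG iNKT1 lay above every iNKT2 library. At Sdc1, chr12:8761198-8761539 held 3.79 and 3.79 CPM, 10.3 and 8.28 CPM, and 0.944 to 3.83 CPM. At Rora, chr9:69074872-69075184 held 0.508 and 0.220 CPM, 2.70 and 2.50 CPM, and 0.690 to 1.24 CPM. Over the whole list of 10 genes, the summed level was 538.8 to 562.5 CPM in BALB/c iNKT1, 612.9 to 691.4 CPM in SKG iNKT1 and 783.4 to 945.4 CPM in iNKT2. In this list 5 regions were called higher in SKG iNKT1, beside 0.281% of all regions. At promoters alone the sums were 50.4 to 52.2 CPM and 63.0 to 66.7 CPM in iNKT1. The part of iNKT17 cells in these members was not tested.

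Double-positive thymocyte markers had 2 members of 21 regions (9.52%, beside 0.922% of all regions). The 4 regions called higher in SKG iNKT1, beside 0.281% of all regions, were all at Arpp21. No region of Dntt was a member or called. The regions at Cd8a, Cd8b1 and Cd4 were not called, and the 5 at Cd4 had log2 changes of 0.14 to 0.47. A region over a coding exon of Cd8b1, the CD8β chain, held 0.478 and 1.68 CPM in BALB/c iNKT1 and 4.30 and 15.4 CPM in SKG iNKT1, and at most 1.52 CPM in iNKT2, where 2 libraries were at 0. Its SKG iNKT1 libraries lay far apart, and it was not called (log2 change 3.26, SE 0.97). A region in an intron of Arpp21, an RNA-binding protein of immature thymocytes, was even, with 0.956 and 1.15 CPM against 5.40 and 4.81 CPM, and it was called. The list summed to 61.8 to 66.3 CPM in BALB/c iNKT1, 100.4 to 111.7 CPM in SKG iNKT1 and 109.4 to 133.4 CPM in iNKT2, no region was assigned to Rag1, Rag2 or Ptcra, and the part of such cells was not tested. B cell, myeloid, dendritic, NK, epithelial and erythroid markers held no member among 31, 14, 21, 35, 11 and 3 regions, where edgeR at the looser thresholds called 1 B cell marker region higher, and 2 B cell and 1 NK marker regions lower, in SKG iNKT1. The B cell markers summed to 73.3 to 77.4 CPM in BALB/c iNKT1 and 50.4 to 58.7 CPM in SKG iNKT1.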

How the data were processed

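The authors aligned ATAC-seq reads to mm10 with Bowtie 1.0, trimmed those left unmapped with Trim Galore and aligned these again, removed duplicates with Picard and called peaks with MACS2. The deposited table holds whole-number counts of transposase insertions per region and library, not normalized although its name says so, for 94823 regions of 300 to 7709 bp (median 343 bp). Region starts were counted from 0 in the table and are printed from 1. The study tested with limma on voom values. Here edgeR 4.0.16 (R 4.3.3) was fitted to the counts of all 10 libraries with TMM factors, 1 mean per group and the quasi-likelihood test, with Benjamini-Hochberg adjustment over all regions. limma 3.58.1 and DESeq2 1.42.0 were alternatives. The fits were tested on simulated counts. Depth was 14988590 to 36342635 insertions per library, and intervals cover counting error only.

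Each region was assigned to the protein-coding gene (GENCODE M21, GRCm38) that holds its centre, otherwise to the nearest protein-coding start. Named members and sequences were taken from all chromosomes except 18. Named members were the 10 with the largest log2 change, the 8 with the highest SKG iNKT1 mean, the 6 promoters with the largest change, members at listed genes (at most 2 a gene, 30 in all), those at the 6 genes with most members, and the 3 regions on either side of the ratio limit. The members and lists were chosen with earlier results of these data known. The 8 windows with a Runx string were the members with the largest change that hold it. Regions outside the set near 1700017N19Rik were named after their values were seen. Besides the strings spelled out in the results, motif groups were searched as ACAGGAAG and also CCGGAAG for Ets, as GGGANTTTC and also GGGANTTCC and also GGGGNTTTC and also GGGGNTTCC for NF-kB, as GCGTGGG and also GTGGGTG for Egr, as CCACACCC and also CCCCGCCC for Klf, as CAGCTG and also CAGGTG for E-box, and as TAGGTCA for ROR, AAAGGTCA for Nr4a, GAAANTGAA for IRF, TTCCNNGAA for Stat and TGCTGAC for Maf. The Nr4a and ROR strings share letters, as do the Egr and Klf groups. Replicate numbers come from the labels. Deviations of same-numbered libraries correlated at r of 0.49, 0.17 and 0.20 between the iNKT2 genotypes, at -0.01 between the iNKT1 genotypes, and at 0.14 and 0.11 between BALB/c iNKT1 and iNKT2. Unlike-numbered iNKT2 pairs reached 0.28. Library pairs within a group were no duplicates.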

Additional observations from a re-analysis of the deposited data

Results flagged for a closer look

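The change with genotype differed between the subsets in 101 members (11.6%) by the interaction term of the edgeR fit, at an adjusted p under 0.01 and 4-fold, beside 0.341% of all regions in that direction. The median interaction was -1.54 on the log2 scale in members and 0.06 in all regions. The limit on the iNKT2 ratio already selects for this difference, so the number is a description of the chosen regions and no independent evidence. Fewer members, and fewer of all regions, were called in this direction when any of the 4 iNKT1 libraries was left out, which left a group with 1 library. The median interaction of members was -1.70 and -1.50 without BALB/c iNKT1 replicate 1 or 2. Without SKG iNKT1 replicate 1 or 2 it was -1.59 and -1.49.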

How the results depend on the processing

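The rule kept 365 regions with 2 CPM added to the means, 49 at a 4-fold ratio and 560 with a minimum of 4 CPM, and 839 to 1219 when a library was left out. At an adjusted p under 0.05 and 2-fold, the members called were 663 in the iNKT1 genotype contrast, 66 in iNKT2, 348 in the interaction, and 508 and 630 between subsets in BALB/c and SKG. A low-count filter left 205 called between subsets in SKG and, in BALB/c, 121 higher and 76 lower in iNKT2. Members that the filter removed counted as not called. In the interaction, limma with voom called 66 members lower (144 of all regions) and DESeq2 175 (1090 of all regions). The main fit called 101 (323 of all regions). voom with quantile normalization called 61 higher in iNKT1 (138 of all regions) and 43 lower in the interaction (148 of all regions). In iNKT2 it called 6 higher and 5 lower (1173 and 3469 of all regions). The cause of these shifts was not tested. Leaving out a library gave 31 to 133 called in iNKT1, 6 to 11 in iNKT2, 14 to 136 in the interaction, 254 to 299 between subsets in BALB/c and 403 to 433 in SKG. The interaction gave 66, 66 and 65 without BALB/c iNKT2 replicate 2, replicate 3 or SKG iNKT2 replicate 3 (189, 162 and 187 of all regions lower). In iNKT2, 11 were called lower without SKG iNKT2 replicate 1 (5243 of all regions lower). Leaving out an iNKT1 library left a group with 1 library, and the fit took its spread from the other groups. Fewer members, and fewer of all regions, were then called in the iNKT1 genotype contrast and in the interaction. With the replicate block the numbers in iNKT1, iNKT2, the interaction, BALB/c and SKG were 118, 7, 137, 279 and 409, each within 1.5 times the unblocked number. Over all regions the block called 303 higher in iNKT1, 4730 lower in iNKT2 and 518 lower in the interaction. Between subsets it called 14696 of all regions higher and 5729 lower in BALB/c, and 9642 and 6430 in SKG. Library totals in place of TMM moved the median of all regions between subsets from 0.06 to 0.34 in BALB/c and from 0.14 to 0.32 in SKG (log2). Of 1603 iNKT1 log2 values of the 96 named members under 17 alternatives, 86 moved by more than the replicate spread, and their direction was fixed by the choice of members. With 15.6 insertions per CPM in the SKG iNKT1 libraries, the lowest members rest on few insertions.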

Other observations

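Near 1700017N19Rik, regions outside the set changed in other ways in iNKT2. The region chr10:100770206-100770922 held 5.11 and 4.36 CPM in BALB/c iNKT1, 45.9 and 56.8 CPM in SKG iNKT1, 8.25 to 9.15 CPM in BALB/c iNKT2 and 16.7 to 36.6 CPM in SKG iNKT2. By contrast chr10:100865540-100865848 held 1.44 to 2.35 CPM in BALB/c iNKT2 and 0.0674 to 0.138 CPM in SKG iNKT2, with a log2 change of -4.12, and it was at most 0.448 CPM in every iNKT1 library. Both were chosen after their values were seen.

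At Arpp21, 3 of the 6 regions outside the set were also called higher in SKG iNKT1. The region chr9:112225045-112225384 held 1.31 and 1.63 CPM in BALB/c iNKT1, 8.67 and 7.51 CPM in SKG iNKT1, 1.65 to 2.46 CPM in BALB/c iNKT2 and 2.83 to 5.14 CPM in SKG iNKT2.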
